A study of Mus musculus with 2 samples.

Results

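The genes described here are 36 genes of glycolysis and of the response to low oxygen, listed by name, of which 35 were found among the 24532 genes of the count table of cultured mouse cardiac myofibroblasts. The remaining gene, *Ero1a*, an oxidoreductase of the endoplasmic reticulum, is in the table under its older symbol *Ero1l* and is given beside the others. The cells came from hearts of C57BL/6 mice (C57BL/6J for isolated myofibroblasts in the study's methods) on day 3 after myocardial infarction (MI), as the CD45-negative fraction of a magnetic sort, and the number of hearts is not given in the sources used here. They were grown in DMEM with foetal bovine serum and transfected with 12.5 nM of a control siRNA (siCtrl) or of an siRNA against *Vgll3* (si*Vgll3*), the gene of a transcriptional cofactor, and RNA was taken 72 h later. There is 1 library per condition and 1 siRNA against *Vgll3*. No library from cells held at low oxygen or left without siRNA was analysed here.

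Glycolysis turns glucose into pyruvate, which cells either pass to the mitochondria or reduce to lactate and export. The hypoxia-inducible factors (HIFs) are pairs of an oxygen-sensitive α subunit and a stable partner. When oxygen is present, prolyl hydroxylases of the EGLN family mark the α subunits for destruction, and when oxygen is low the HIFs switch on glucose transporters, most glycolytic enzymes, angiogenic factors and their own hydroxylases. Fibroblasts that turn into myofibroblasts are known to raise glycolysis, and the infarcted heart is poorly supplied with oxygen. Much of this control acts on proteins, which these libraries do not measure.

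The count table held 140815237 reads on genes with siCtrl and 125789276 with si*Vgll3*. TPM is the level of a gene relative to all transcripts of its library, scaled for gene length, and M is the log2 ratio of the TPM in si*Vgll3* to that in siCtrl. A is log2 of the mean TPM of both libraries. Square brackets after M hold its 95% Clopper-Pearson counting interval, which says how far sampling of reads alone could move the value and holds nothing of the spread between cultures. A gene was called lower at M below −0.5 and higher at M above 0.5, each with A above 0. The study gave the same limits for lower genes. How it computed A is not given in the sources used here, and its count of lower genes differs from the 1341 found here. *Vgll3* had 42925 reads with siCtrl and 16524 with si*Vgll3*, or 202 and 84.0 TPM, which left 41.6% of its level. All 11 myofibroblast markers were at A above 0, with 19173 TPM in all with siCtrl and 15079 with si*Vgll3*, and they differed in direction. *Postn*, *Col1a1*, *Col3a1*, *Pdgfrb*, *Tcf21* and *Col1a2* were lower (54.5%, against 11.4% of all genes at A above 0). *Tagln* and *Thy1* were higher (18.2%, against 5.73%), and *Acta2* was at 3296 and 3866 TPM. Of the 8 leukocyte markers 5 had 0 reads in both libraries, among them *Ptprc*, which encodes CD45, and the list summed to 13.4 and 6.10 TPM. Most of that sum was *Lyz2*, at 10.9 and 3.13 TPM, while *Csf1r* was at 1.29 and 1.83 and *Cd68* at 1.21 and 1.14. Of the 8 cardiomyocyte markers 6 had 0 reads in both libraries, among them *Myh6* and *Myh7*, while *Tnnt2* was at 60.0 and 10.4 TPM. The 4 epicardial markers summed to 58.65 and 34.98 TPM and differed in direction. *Upk3b* was at 31.6 and 9.89 TPM, *Upk1b* at 17.8 and 14.4, *Wt1* at 7.61 and 4.78 and *Msln* at 1.58 and 5.93. With 1 library each, the effect of the siRNA and a difference between the cultures cannot be told apart.

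Most of these genes were at nearly the same level in both libraries, and of the members at A above 0 *Epas1*, *Pfkfb3* and *Ndrg1* were furthest apart. Of the 33 members at A above 0, 5 were lower in si*Vgll3*, or 15.2%, against 11.4% of all 11754 genes at that level. They were *Epas1* and *Pfkfb3*, and further *Pfkfb4*, *Eno2* and *Ankrd37*. A single member was higher, *Ndrg1*, or 3.03% against 5.73% of all genes. Both shares are near those of all genes. The whole counting interval lay past the limit for *Epas1*, *Pfkfb3* and *Pfkfb4* on the lower side, where 8.31% of all genes did so, and for *Ndrg1* on the higher side, where 3.76% did. The median M of the 33 members was 0.09 and that of all genes was −0.05. M was above 0 for 23 members (69.7%), against 43% of all genes. *Aldoc* and *Car9* had A below 0 and entered no count. Bulk libraries cannot tell fewer cells of a type from less RNA per cell.

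**Figure D1:**
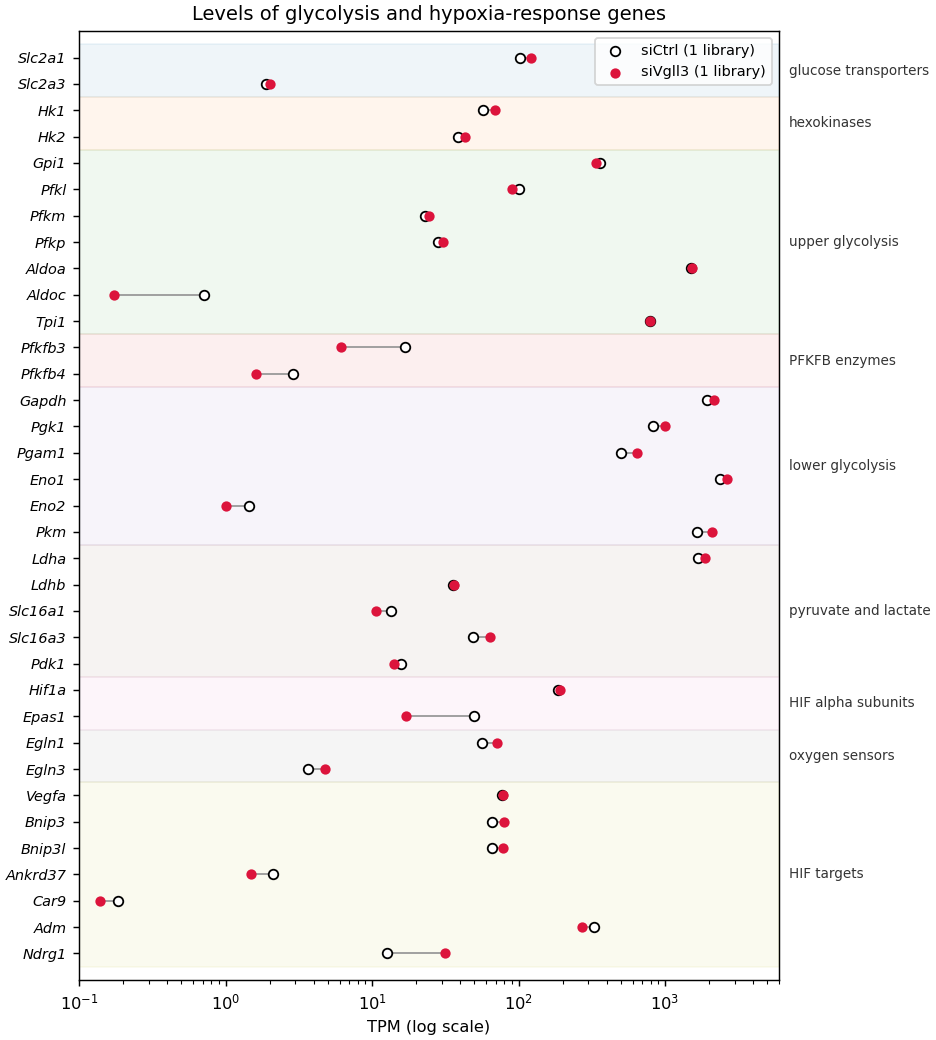
TPM of the 35 members on a log axis, with an open circle for the siCtrl library and a filled circle for the si*Vgll3* library, ordered by role. Circles of most genes nearly coincide, and the wide gaps belong to *Aldoc*, *Pfkfb3*, *Pfkfb4*, *Epas1* and *Ndrg1*.

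Glucose enters fibroblasts mainly through facilitative transporters. *Slc2a1*, which encodes GLUT1, had 16762 reads with siCtrl and 18612 with si*Vgll3*, or 102 and 122 TPM, an M of 0.26 [0.23, 0.29]. *Slc2a3*, which encodes the high-affinity transporter GLUT3, was at 1.89 and 1.996 TPM with 477 and 467 reads. Its interval, −0.11 to 0.27, included 0. *Slc2a1* thus made up nearly all of this pair in both libraries. The hexokinases trap glucose as its phosphate. *Hk1*, the form of most tissues, was at 57.2 TPM with siCtrl and 69.3 with si*Vgll3* (15171 and 17015 reads). *Hk2*, the inducible form, was at 38.6 and 43.0 TPM (13567 and 14006 reads). Their M was 0.28 and 0.16, both above 0 by more than counting error and both below the limit.

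Of the 7 genes for the steps from hexose phosphate to triose phosphate, the 6 at A above 0 had M between −0.15 and 0.12. *Gpi1*, the isomerase, was at 362 TPM with siCtrl and 341 with si*Vgll3* (66797 and 58085 reads), an M of −0.09. *Pfkl*, *Pfkm* and *Pfkp* encode the liver, muscle and platelet subunits of phosphofructokinase, which catalyses the committed step. *Pfkl*, the most abundant of them, was at 100.4 TPM with siCtrl and 90.5 with si*Vgll3* (23824 and 19870 reads). *Pfkp* was at 28.2 and 30.7 TPM (7270 and 7315 reads) and *Pfkm* at 22.9 and 24.4 TPM (4206 and 4154 reads), with M of −0.15, 0.12 and 0.09 for *Pfkl*, *Pfkp* and *Pfkm*. The share of *Pfkl* in their summed TPM was 66.2% with siCtrl and 62.1% with si*Vgll3*. *Aldoa*, the aldolase of muscle and most other tissues, was at 1508 and 1532 TPM (148275 and 139744 reads), and *Tpi1*, triose phosphate isomerase, at 785 and 787 TPM (80281 and 74454 reads). These abundant genes had M of 0.02 and 0.00.

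*Aldoc*, the aldolase known from brain, behaved unlike *Aldoa* but was barely expressed. It had 124 reads with siCtrl and 28 with si*Vgll3*, or 0.717 and 0.172 TPM, an M of −2.06 [−2.71, −1.46] at an A of −1.17. With 1 TPM added to both libraries before the logarithm its M was −0.55.

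Enzymes from triose phosphate to pyruvate, apart from *Eno2*, were all higher in si*Vgll3* by amounts below the limit. *Gapdh*, which oxidises triose phosphate and is a common reference gene in qRT-PCR, had 174279 and 182436 reads, or 1920 and 2172 TPM, an M of 0.18 [0.17, 0.19]. *Pgk1*, the kinase that makes the first ATP of the pathway, was at 826 TPM with siCtrl and 1001 with si*Vgll3* (96264 and 107972 reads), an M of 0.28. *Pgam1*, phosphoglycerate mutase, was at 498 and 646 TPM (58196 and 69945 reads). Its M of 0.38 [0.36, 0.39] was the highest of the glycolytic enzymes. *Eno1*, the enolase of most tissues and the most abundant member, was at 2378 and 2632 TPM (269584 and 276145 reads), an M of 0.15. *Pkm*, pyruvate kinase, was at 1660 TPM with siCtrl and 2084 with si*Vgll3* (257720 and 299467 reads), an M of 0.33 [0.32, 0.34]. *Eno2*, the enolase known from neurons, was at 1.44 TPM (249 reads) with siCtrl and at 1.01 TPM (158 reads) with si*Vgll3*. Its M of −0.52 [−0.82, −0.23] was past the limit by less than counting error.

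Over the 17 glycolytic enzymes together, from the hexokinases to the lactate dehydrogenases, summed TPM was 11903 with siCtrl and 13353 with si*Vgll3*, or 1.19% and 1.34% of all TPM. The sum was thus 1.12 times as high in si*Vgll3*. Of the 16 enzymes at A above 0, 13 had M above 0 and 3 had M below 0, with a median of 0.13. The 8 members with A above 9 had M between 0.00 (*Tpi1*) and 0.38 (*Pgam1*), while the quartiles of M over all 298 genes above that level were −0.09 and 0.13. *Gapdh*, *Pgk1*, *Pkm*, *Eno1*, *Ldha* and *Pgam1* lay above the upper quartile. Each of the enzymes just named, and *Tpi1*, has at least 1 near-identical copy in the genome. It is uncertain which copy part of their reads came from. Transcripts of 43 other annotated genes matched *Gapdh* at 95% identity or more over at least 300 bases, and 11 of the 35 members had at least 1 such copy. The 22 members at A above 0 without a copy had a median M of 0.04. One copy, *Eno1b*, has its own row in the tables, with 13563 and 12958 reads in the count table but only 0.0263 and 0.0441 TPM, so the counts and the TPM divided the enolase reads differently.

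**Figure D2:**
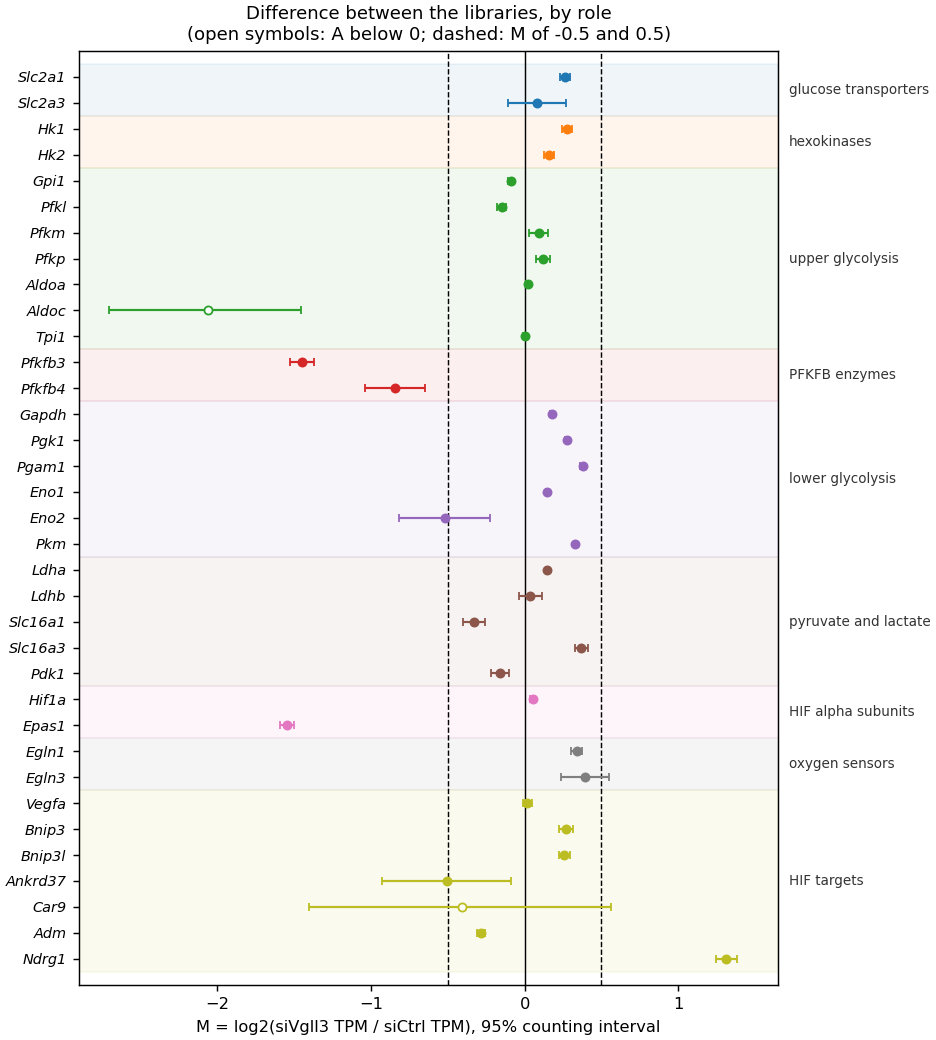
M of the 35 members by role, with 95% counting intervals, dashed lines at −0.5 and 0.5, and open symbols for the genes with A below 0. Enzymes cluster between −0.15 (*Pfkl*) and 0.38 (*Pgam1*) apart from *Aldoc* and *Eno2*, whereas *Epas1* (−1.55), *Pfkfb3* (−1.45) and *Ndrg1* (1.31) stand far outside.

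The PFKFB enzymes make and remove the sugar bisphosphate that activates phosphofructokinase, and so set the pace of glycolysis without carrying its flux. Both members of this kind were lower in si*Vgll3*. *Pfkfb3*, the form with the strongest kinase activity, had 5356 reads with siCtrl and 1775 with si*Vgll3*, or 16.7 and 6.13 TPM. Its M was −1.45 [−1.53, −1.37], so 36.6% of the siCtrl level was left, and it ranked 158 from the lowest M of the 11754 genes. *Pfkfb4* had 621 and 321 reads, or 2.89 and 1.61 TPM, an M of −0.84 [−1.04, −0.65]. *Pfkfb3* lies on chromosome 2 of mm10 from 11471433 to 11554077 on the minus strand, where *Gm37975* on the same strand and *Gm10851* on the other overlap it. *Pfkfb4* lies on chromosome 9 from 108991778 to 109032228 on the plus strand and overlaps no other annotated gene.

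The other genes of the family did not pass the limit. *Pfkfb2*, the heart form, was at 4.31 TPM with siCtrl and 3.24 with si*Vgll3*, an M of −0.41 [−0.52, −0.31]. *Pfkfb1*, the liver form, was at 3.18 and 4.30 TPM, an M of 0.44 [0.23, 0.64]. *Tigar*, a phosphatase that acts against the PFKFB kinases, was at 7.70 and 7.61 TPM. Summed TPM of the PFKFB genes was 27.1 with siCtrl and 15.3 with si*Vgll3*, and *Pfkfb3* made up 61.7% of it with siCtrl and 40.1% with si*Vgll3*.

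Promoter sequences, taken from RefSeq on GRCm38.p6, show the start regions of the PFKFB members beside those of *Pgk1* and *Ldha*, which did not pass the limit. Each runs from 250 bases before to 50 after a RefSeq transcript start, 5′ to 3′ on the strand of the gene, and capitals mark the HIF recognition core, ACGTG or GCGTG on either strand, with overlapping matches counted each. *Pfkfb3* is shown at chr2:11502041-11502340 on the minus strand, *Pfkfb4* at chr9:108991652-108991951 on the plus strand, *Pgk1* at chrX:106186850-106187149 on the plus strand and *Ldha* at chr7:46846832-46847131 on the plus strand. *Pfkfb3* and *Ldha* each have another start in the RefSeq table, and the one nearest the start of the first transcript that the count table lists and GENCODE places is shown. The RefSeq start lies 390 bases from that GENCODE start for *Pfkfb3*, 124 for *Pfkfb4* and 0 for *Pgk1* and *Ldha*, so the GENCODE start of *Pfkfb3* is outside the stretch shown.
Pfkfb3: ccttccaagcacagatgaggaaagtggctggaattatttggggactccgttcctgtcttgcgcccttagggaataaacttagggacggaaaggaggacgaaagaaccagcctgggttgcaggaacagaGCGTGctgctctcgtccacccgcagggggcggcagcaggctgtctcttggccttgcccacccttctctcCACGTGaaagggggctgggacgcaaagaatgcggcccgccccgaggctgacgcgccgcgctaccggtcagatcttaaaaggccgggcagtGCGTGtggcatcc
Pfkfb4: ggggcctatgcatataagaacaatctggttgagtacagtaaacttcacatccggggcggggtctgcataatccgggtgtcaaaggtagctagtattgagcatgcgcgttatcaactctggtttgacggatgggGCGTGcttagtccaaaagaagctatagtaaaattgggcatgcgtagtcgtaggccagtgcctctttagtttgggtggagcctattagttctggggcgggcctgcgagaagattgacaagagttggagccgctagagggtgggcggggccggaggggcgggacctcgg
Pgk1: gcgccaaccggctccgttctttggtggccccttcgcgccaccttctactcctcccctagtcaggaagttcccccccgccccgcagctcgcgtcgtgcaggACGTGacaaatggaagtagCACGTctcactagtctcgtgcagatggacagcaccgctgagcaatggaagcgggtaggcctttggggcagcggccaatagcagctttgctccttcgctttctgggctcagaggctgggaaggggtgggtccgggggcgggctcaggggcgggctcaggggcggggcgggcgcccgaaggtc
Ldha: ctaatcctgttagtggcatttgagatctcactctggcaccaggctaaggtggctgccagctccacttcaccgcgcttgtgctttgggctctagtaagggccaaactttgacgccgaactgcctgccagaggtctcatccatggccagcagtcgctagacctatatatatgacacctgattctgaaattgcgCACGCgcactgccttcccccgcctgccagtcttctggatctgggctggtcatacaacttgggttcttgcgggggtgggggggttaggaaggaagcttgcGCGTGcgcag
The core occurs 4 times at *Pfkfb3*, once at *Pfkfb4* and 2 times each at *Pgk1* and *Ldha*. A promoter was matched for 29 of the 33 members at A above 0, and *Epas1*, *Ndrg1*, *Slc2a3* and *Bnip3l*, which had none, are not in the shares and medians that follow. Of these, 24 (82.8%) held at least 1 core, against 64.8% of 9310 promoters of all genes at A above 0, and the median number of CG dinucleotides was 20 in the members and 22 in all. Members with a core had a median M of 0.13 and those without one, 5 genes, a median of 0.00. Over all genes the medians hardly differed, at −0.04 with a core and −0.05 without. The core of the TEAD factors, partners of the VGLL proteins, GGAATG on either strand, was in 1 member promoter (3.45%), that of *Eno2*, and in 11.9% of all. Matches of so few letters describe the sequence and do not show binding.

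Pyruvate is reduced by lactate dehydrogenase, and the lactate leaves through monocarboxylate transporters. *Ldha*, the form that favours lactate, was at 1681 TPM with siCtrl and 1863 with si*Vgll3* (174094 and 178522 reads), an M of 0.15 [0.14, 0.16]. *Ldhb*, the heart form, was at 35.6 and 36.5 TPM (2947 and 2798 reads), and its interval of −0.04 to 0.11 included 0. *Ldhb* was 2.07% of the TPM of this pair with siCtrl and 1.92% with si*Vgll3*. The transporters differed in opposite directions. *Slc16a3*, which encodes the lactate exporter MCT4, had 7733 reads with siCtrl and 9177 with si*Vgll3*, or 49.2 and 63.5 TPM, an M of 0.37 [0.33, 0.41]. *Slc16a1*, which encodes MCT1, had 3791 and 2792 reads, or 13.4 and 10.7 TPM, an M of −0.33 [−0.40, −0.26]. *Pdk1*, a kinase that blocks pyruvate dehydrogenase and so the conversion of pyruvate to acetyl-CoA, was at 15.7 and 14.1 TPM (5198 and 4305 reads), an M of −0.16. None of these passed the limit.

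The α subunits of the HIFs differed sharply from each other. *Hif1a*, the subunit known for driving glycolytic genes, had 56169 reads with siCtrl and 53350 with si*Vgll3*, or 185 and 192 TPM, an M of 0.05 [0.04, 0.07]. *Epas1*, which encodes HIF2α, had 17089 reads with siCtrl and 5411 with si*Vgll3*, or 50.01 and 17.1 TPM. Its M of −1.55 [−1.592, −1.503] was the lowest of the members at A above 0 and left 34.2% of the siCtrl level. Among all genes at A above 0 it ranked 127 from the lowest M. *Epas1* lies on chromosome 17 from 86753700 to 86833410 on the plus strand and shares that strand with *AC096777.1*. *Epas1* is also known as a gene of endothelial cells and pericytes. The 7 endothelial markers, all with reads, summed to 26.8 TPM with siCtrl and 23.4 with si*Vgll3*, and they differed in direction. *Tek* was at 19.5 and 13.4 TPM, *Emcn* at 2.72 and 2.68 and *Vwf* at 0.191 and 0.134. *Pecam1* was at 1.89 and 2.61 TPM, *Cdh5* at 2.13 and 3.01, *Kdr* at 0.231 and 0.452 and *Cldn5* at 0.111 and 1.12. The 5 pericyte markers summed to 8.85 and 4.47 TPM, most of it *Des* at 7.22 and 3.11. *Cspg4* was at 1.10 and 0.874 TPM and *Rgs5* at 0.507 and 0.439, while *Abcc9* had 6 and 20 reads and *Kcnj8* 0 and 24. The part of other cells in the *Epas1* level was not tested.

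The genes around the α subunits were closer to each other. *Egln1*, the main oxygen sensor, was at 56.2 TPM with siCtrl and 71.1 with si*Vgll3* (12649 and 14797 reads), an M of 0.34 [0.30, 0.37]. *Egln3*, a hydroxylase that HIF itself induces, was at 3.64 and 4.77 TPM with 622 and 755 reads, an M of 0.39 [0.24, 0.55]. *Egln2*, the remaining hydroxylase of the family and no member, was at 52.3 and 49.1 TPM. Of the 11 regulators of the pathway at A above 0, only *Cited2*, which competes with HIF for its coactivator, passed the limit. That is 9.09% higher, against 5.73% of all genes, and 0% lower, against 11.4%. *Cited2* was at 90.3 and 131 TPM, an M of 0.54 [0.50, 0.57]. *Arnt*, the stable partner of the α subunits, had an M of −0.22, and *Vhl*, which directs their destruction, an M of −0.21. *Tceb2* and *Tceb1*, the elongins of the same ligase, were the most abundant of these regulators, with M of 0.07 and 0.18.

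Of the HIF targets among the members, *Ndrg1* stood apart. *Ndrg1*, a stress-responsive gene linked to differentiation, had 2341 reads with siCtrl and 5384 with si*Vgll3*, or 12.7 and 31.5 TPM. Its M of 1.31 [1.24, 1.38] was 2.49-fold, and it ranked 116 from the highest M of all genes. *Ndrg1* lies on chromosome 15 from 66929318 to 66969640 on the minus strand, with *Gm17035* and *Gm2895* on the other strand. *Vegfa*, the angiogenic factor, was at 77.2 and 78.2 TPM (16761 and 15716 reads), and its interval of −0.01 to 0.05 included 0. *Bnip3* and *Bnip3l*, receptors for the removal of mitochondria, were at 65.5 and 65.4 TPM with siCtrl and at 79.1 and 78.3 TPM with si*Vgll3*, with M of 0.27 and 0.26. *Bnip3* had 7349 and 8209 reads and *Bnip3l* 13522 and 14977.

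The remaining targets were lower or near even. *Adm*, which encodes the vasodilator peptide adrenomedullin, had 29064 and 22104 reads, or 329.6 and 271 TPM, an M of −0.28 [−0.31, −0.26]. *Ankrd37*, an ankyrin repeat gene, was at 2.11 TPM (122 reads) with siCtrl and at 1.49 TPM (80 reads) with si*Vgll3*. Its M of −0.51 [−0.93, −0.09] was past the limit by less than counting error, and it overlaps *Lrp2bp* and *Ufsp2* on the other strand. *Car9*, carbonic anhydrase IX, a gene usually silent unless oxygen is low, had only 23 reads with siCtrl and 17 with si*Vgll3*, or 0.183 and 0.138 TPM. A difference in *Car9* was not detectable at this depth. *Ero1l* was at 56.6 and 52.6 TPM (15969 and 13738 reads), an M of −0.11, and adding it changed no count of calls.

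**Figure D3:**
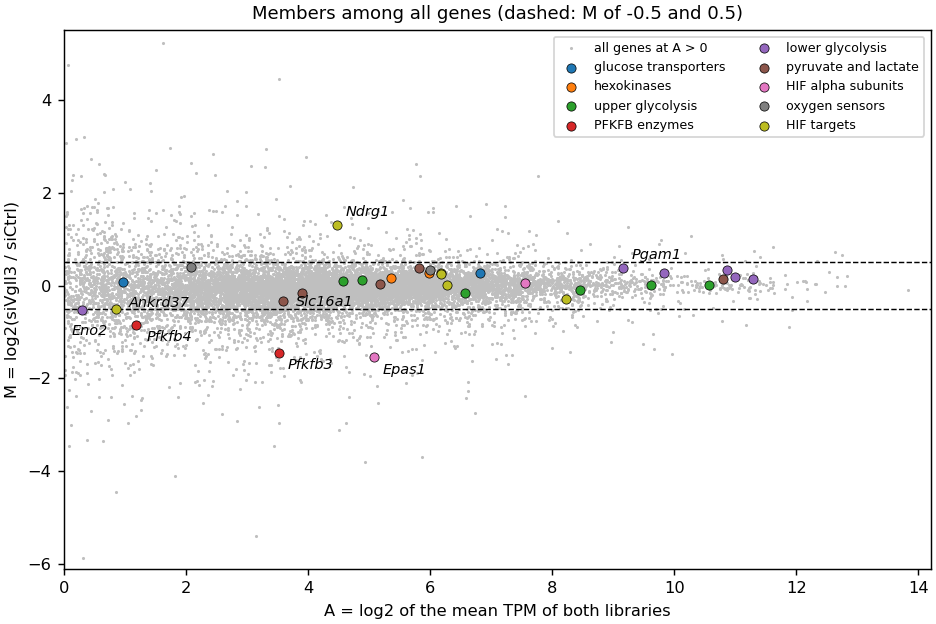
M against A for all genes at A above 0 (grey) and for the members, coloured by role, with dashed lines at −0.5 and 0.5. The abundant enzymes lie at the right just above 0, while *Epas1*, *Pfkfb3* and *Ndrg1* lie at middle levels outside the dashed lines.

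Shifts between related genes were measured as the log2 odds ratio of their reads in the libraries, which does not depend on how the libraries were scaled, for 12 pairs. The shift of *Epas1* against *Hif1a* was −1.58 [−1.63, −1.54] with a Woolf interval for counting error. In TPM, *Epas1* was 21.3% of this pair with siCtrl and 8.18% with si*Vgll3*. *Aldoc* against *Aldoa* shifted by −2.06 [−2.65, −1.47] and *Eno2* against *Eno1* by −0.69 [−0.98, −0.40]. In both cases the rare form was lower relative to the common one, whose total it hardly touched, since *Eno2* was only 0.0607% of its pair in siCtrl. *Slc16a3* against *Slc16a1* shifted by 0.69 [0.61, 0.77], from 78.6% to 85.6% of the TPM of the pair. *Pfkfb4* against *Pfkfb3* shifted by 0.64 [0.43, 0.85], so *Pfkfb3* was lower by more than *Pfkfb4*, beyond counting error. The pairs *Pfkp* and *Pfkl*, *Pfkm* and *Pfkl*, *Hk2* and *Hk1*, and *Ldhb* and *Ldha* shifted by 0.27, 0.24, −0.12 and −0.11, with intervals apart from 0. For *Slc2a3* against *Slc2a1*, *Egln3* against *Egln1* and *Bnip3l* against *Bnip3* the interval included 0, at −0.37 to 0.01, −0.10 to 0.21 and −0.07 to 0.04.

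**Figure D4:**
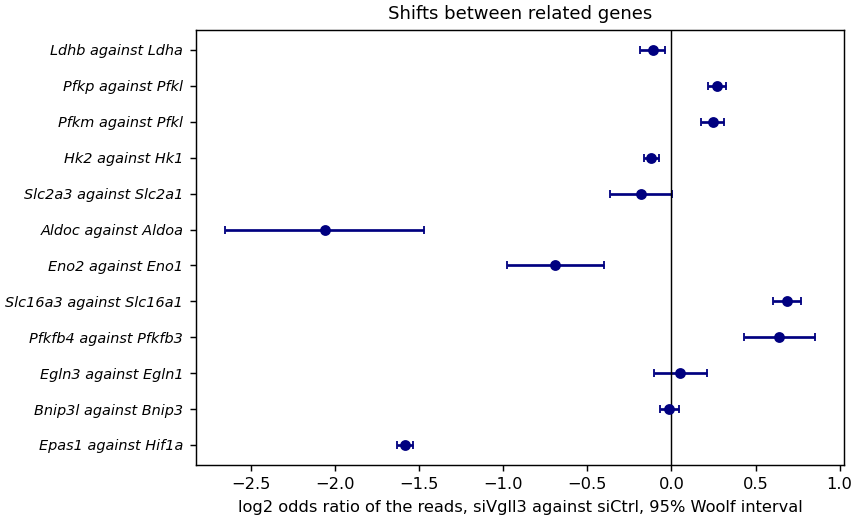
Log2 odds ratio of the reads of 12 pairs of related genes, si*Vgll3* against siCtrl, with 95% Woolf intervals. *Epas1* against *Hif1a* (−1.58) and *Slc16a3* against *Slc16a1* (0.69) are far from 0 with short intervals, and *Aldoc* against *Aldoa* (−2.06) has the longest interval.

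Genes next to these pathways were taken from 7 further lists, with 105 genes in the count table and 91 at A above 0. Of the 91, 11 (12.1%) were lower and 6 (6.59%) higher, again near the shares of all genes, with a median M of −0.03. With library totals, TMM scaling, DESeq2's size factors or centring on the median of all genes in place of plain TPM, the same lists gave 9 lower and 9 higher genes. *Pgam2*, the muscle mutase, was at 3.35 and 0.876 TPM. Among 11 other glycolytic isoforms and regulators at A above 0 it alone was lower (9.09%, against 11.4% of all genes). The most abundant of these, *Pgm2*, *Adpgk* and *Minpp1*, had M of −0.05, −0.11 and 0.19, and 7 of the 20 listed genes, such as *Hk3* and *Pklr*, had 0 reads in both libraries, which allows up to 3 reads each. Of 8 other transport genes, *Slc2a6*, *Slc16a7* and *Slc2a10* were lower (37.5%, against 11.4% of all genes). Their M was −2.13, −0.64 [−0.93, −0.36] and −0.50 [−0.58, −0.42], so the intervals of *Slc16a7* and *Slc2a10* included the limit. *Bsg*, the partner that carries MCT1 and MCT4 to the membrane, was at 931 and 883 TPM, an M of −0.08. *Emb*, another such partner, had an M of 0.41.

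Of the 14 genes of pyruvate entry into mitochondria, *Pdk2* and *Pdp2* were lower (14.3%, against 11.4% of all genes) and none was higher. *Pdk2*, a kinase of pyruvate dehydrogenase, was at 7.98 and 3.68 TPM, an M of −1.11 [−1.27, −0.96]. *Pdp2*, a phosphatase that opposes it, was at 5.53 and 3.62 TPM, an M of −0.61 [−0.75, −0.48]. The most abundant genes of this list, *Pdha1*, *Dld* and *Pdhb*, had M of −0.05, 0.05 and 0.12. The pentose phosphate pathway branches off glucose phosphate. Of its 8 genes listed here, *Rpia* was lower (12.5%, against 11.4% of all genes) and *Taldo1* higher (12.5%, against 5.73%). *Rpia* was at 18.7 and 12.0 TPM, and *Taldo1* at 243 and 346 TPM with an M of 0.51 [0.48, 0.54]. *Pgd*, the most abundant gene of this list, had an M of 0.38 and *Tkt* one of −0.03. Of 8 genes of glycogen metabolism only *Ppp1r3c*, also reported as a HIF target, passed the limit (12.5% higher, against 5.73% of all genes). It was at 1.51 and 2.29 TPM, while the most abundant genes of the list, *Ugp2*, *Gyg* and *Pygb*, had M of 0.09, −0.34 and −0.27.

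The 32 other reported HIF targets at A above 0 went both ways, with 4 lower, 4 higher and a median M of 0.04. Each share was 12.5%, against 11.4% lower and 5.73% higher among all genes. The lower ones were *Igfbp3* at −1.16, *Vldlr* at −0.82, and the collagen-modifying enzymes *Plod2* at −0.64 and *P4ha1* at −0.50. The interval of *P4ha1*, −0.513 to −0.493, included the limit. *P4ha1* was at 753 and 532 TPM. Among the higher ones were *Angptl4* at 1.00, *Wsb1* at 0.73 and *Ppp1r3c* at 0.60 [0.36, 0.83]. *Lox*, which crosslinks collagen, and *Mif* were among the most abundant genes of the list, with M of −0.14 and 0.14.

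**Figure D5:**
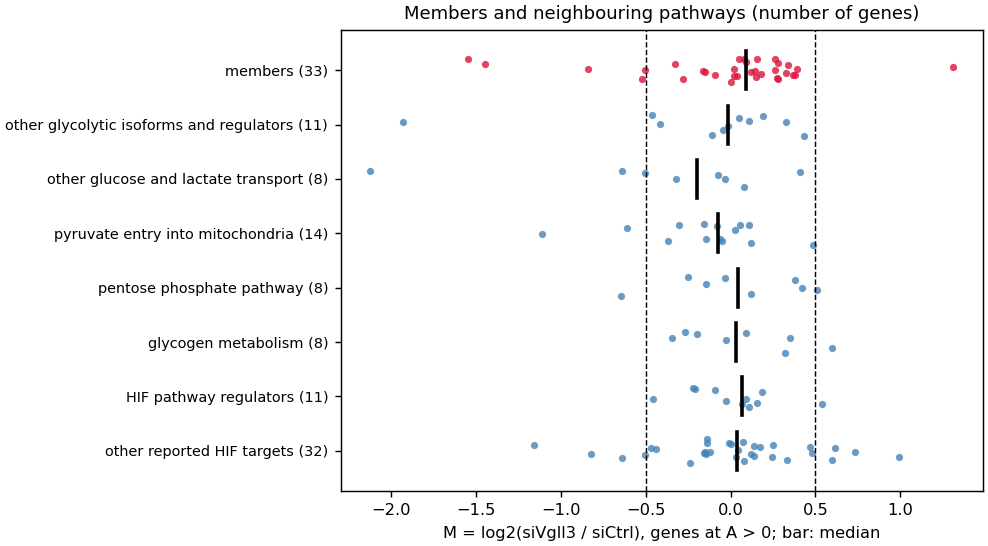
M of the members and of the genes of 7 further lists at A above 0, a point per gene, with a bar at each median and dashed lines at −0.5 and 0.5. The medians lie between −0.20 (other glucose and lactate transport) and 0.09 (members), and each list has most of its genes between the dashed lines.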

How the data were processed

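RNA-seq was measured in 1 library each of siCtrl and si*Vgll3* cardiac myofibroblasts. The authors made stranded mRNA libraries. Their processing notes name FastQC and Trimmomatic for read quality, HISAT2 for mapping (mm10) and StringTie for assembly. Versions, annotation release and strand setting are not given in the sources used here. The authors deposited raw read counts per gene, without normalization, and TPM per gene, scaled for gene length and library size, for 14158 genes with reads in both libraries. The microarrays of the study were not analysed here.

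M and A were computed from TPM with nothing added, for 14149 genes. Clopper-Pearson 95% intervals were computed for the reads of a gene in both libraries and moved to M by an amount set separately for each gene. They were tested on simulated counts that held only the counting error they assume, as were the Woolf intervals. That simulation cannot show how well the intervals fit these libraries. Reads are not independent molecules, so intervals cover counting error only and compare libraries, not conditions. With 1 library per condition, no test was made and edgeR 4.0.16 (TMM) and DESeq2 1.42.0 served for scaling only. Positions came from GENCODE vM21 (GRCm38, the assembly of mm10), and copies were found with BLAST 2.17.0. All 35 members were named, and of each further list the 3 most abundant genes and, where 5 or fewer passed the limit in a direction, those. Some genes of the further lists that this rule selects are not reported here. The genes shown by promoter were picked after their values were seen. The members and lists were chosen with earlier results of these data known.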

Additional observations from a re-analysis of the deposited data

How the results depend on the processing

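No paired analysis was possible because there is a single library on each side, and none could be left out. *Epas1* and *Pfkfb3* were lower and *Ndrg1* higher under each alternative in which calls were made. *Pfkfb4* was lower under all of them except a filter of A above 2 and a limit of 1 on M. *Eno2*, *Ankrd37* and *Aldoc* depended on the setting. The number of lower members was 3 with CPM, with 0.1 TPM added, after subtracting the median over all genes from M and with the whole interval past the limit, and 2 with A above 2 or a limit of 1. It was 4 with TMM scaling, DESeq2's size factors, 1 TPM added or thinned counts, and 6 without a filter on A. *Aldoc* was among the lower members with 1 TPM added and without a filter on A. Counts thinned to 50% gave 2 higher members, *Ndrg1* and *Egln3*. The summed level of the glycolytic enzymes had a log2 ratio of 0.17 in TPM and 0.22 in CPM, and scaling to library totals moved M of all genes by a median of 0.05. No member changed the sign of M under CPM, TMM scaling, DESeq2's size factors or centring.

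Over all genes, 2103 were lower and 1428 higher without a filter on A, and 384 and 207 with a limit of 1. Higher genes numbered 393 with A above 2 and 442 with the whole interval past the limit. These settings change the genes counted or the bar they must pass. In the further lists, a limit of 1 left 4 lower and 0 higher genes, and 7 lower genes had their whole interval past the limit. No test across replicates was run in any of these settings. Values of M for members with few reads, such as *Car9* with 40 reads over both libraries, are limited by depth.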
